A study of Mus musculus with 2 samples.

Results

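The 7 genes of the NMDA receptor, Grin1, Grin2a, Grin2b, Grin2c, Grin2d, Grin3a and Grin3b, were examined among 21951 annotated protein-coding genes in the Prrc2a RIP-seq peak lists of mouse brain. In RIP-seq, RNA is recovered together with a protein held by an antibody, here the m6A-binding protein Prrc2a, and then sequenced. Each deposited peak is a genomic interval with its fold enrichment, a linear ratio of immunoprecipitate over control. Whole brain of C57BL/6J males, wild type and 4 weeks old, was assayed in 2 replicates, and no second genotype, age or treatment was compared. The protocol describes the brains of 3 mice brought together in lysis buffer and does not say how the animals were divided between the replicates, which the study calls biological.

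The family was chosen by its exonic peaks in these lists. A peak counted as exonic when 1 bp or more of it fell in an annotated exon of the gene (GENCODE M21, GRCm38/mm10), and as shared when 1 bp or more of it was also in a peak of the other replicate. By this rule 40 of 18129 peaks in replicate 1 and 59 of 18671 peaks in replicate 2 lay in exons of the NMDA receptor genes, of which 37 and 52 were shared. Over the whole lists, intronic peaks included, 8372 and 8930 peaks were shared. The share over all exonic peaks is not given, so near-complete sharing is not shown to be particular to the family. Because the peaks themselves selected the genes, all counts and fold values below are descriptions and none was tested.

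NMDA receptors are glutamate-gated cation channels that pass calcium and act as coincidence detectors at excitatory synapses, where they are needed for many forms of synaptic plasticity. Each receptor holds the obligatory GluN1 subunit, encoded by Grin1, which binds glycine. It is completed by glutamate-binding GluN2 subunits (Grin2a to Grin2d), which set channel kinetics and carry long cytoplasmic tails, or by glycine-binding GluN3 subunits (Grin3a and Grin3b), which lower calcium permeability. In the postnatal forebrain Grin2b is known as the early subunit and Grin2a as the one that joins it as synapses mature, whereas Grin2c is best known from the cerebellum.

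Coding exons are shown from under the leading shared peaks of Grin2a and Grin3a, one without GGAC and one with several. The leading shared peak of Grin2b, whose sequence is not shown, had a higher mean than that of Grin3a (4.64 against 3.89). For contrast, an exon of Grin2d is shown that holds GGAC and had no peak in either replicate. Sequences are from GRCm38, on the minus strand, written 5′ to 3′ in the sense of the transcript, with GGAC, the motif reported for Prrc2a and part of the m6A consensus, in capitals. Coding exons are numbered from the 5′ end. Grin2a coding exon 5 (chr16:9663439-9663607) lay under the leading peak of the gene, enriched 5.05-fold in replicate 1 and 6.84-fold in replicate 2, which also covered exon 6.
Grin2a coding exon 5: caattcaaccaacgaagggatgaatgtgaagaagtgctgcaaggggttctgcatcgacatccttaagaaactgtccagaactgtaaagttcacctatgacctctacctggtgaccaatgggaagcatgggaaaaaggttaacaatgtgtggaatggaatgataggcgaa
The first 300 bases of the coding part of Grin3a exon 1 (chr4:49844782-49845081) lay under the shared peak of that gene with the highest mean of both replicates, at 3.79 and 3.99, although 3 other shared peaks of Grin3a were higher in replicate 2.
Grin3a coding exon 1: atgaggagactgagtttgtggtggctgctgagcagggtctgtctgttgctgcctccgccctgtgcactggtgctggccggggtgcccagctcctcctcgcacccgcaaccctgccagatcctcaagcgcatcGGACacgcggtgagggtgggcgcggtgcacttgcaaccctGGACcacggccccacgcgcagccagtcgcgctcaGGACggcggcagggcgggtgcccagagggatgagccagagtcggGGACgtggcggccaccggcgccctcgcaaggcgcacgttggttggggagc
Grin2d coding exon 6 (chr7:45856740-45856893) had no peak.
Grin2d coding exon 6: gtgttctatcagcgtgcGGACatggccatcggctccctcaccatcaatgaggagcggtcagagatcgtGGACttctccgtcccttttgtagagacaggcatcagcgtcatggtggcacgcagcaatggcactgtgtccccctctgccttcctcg
GGAC was absent (0) from the 169 bases of Grin2a exon 5, although the peak over it holds GGAC 1 time, in exon 6. It was present 4 times in the 300 bases of Grin3a, and present 2 times in the 154 bases of the Grin2d exon without a peak.

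Shared exonic peaks were found in 3 of the 7 genes, Grin2a, Grin2b and Grin3a. Over all protein-coding genes 12.0% (2629 of 21951) had a shared exonic peak, 16.5% had an exonic peak in replicate 1 and 21% in replicate 2. Of the 7 genes, 4 had an exonic peak in each replicate, the fourth being Grin2d, whose peaks were not shared. The family is small, and these shares are beside the genes that were selected on them.

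The genes with shared peaks were the 3 of the family with the most exonic sequence and the longest spans. Grin2b has 24842 exonic bases over all transcripts and spans 460.0 kb (chr6:135713233-136173511), Grin2a has 17933 over 428.0 kb (chr16:9567898-9995560) and Grin3a has 12275 over 184.0 kb (chr4:49661611-49845744). The other genes have 9700 exonic bases (Grin1), 6658 (Grin2d), 5037 (Grin2c) and 3296 (Grin3b). Among the 5488 protein-coding genes with the most exonic bases (at least 5805.5) the share with a shared exonic peak was 29.6%, and among the 5488 with the longest spans it was 27.4%. The 3 genes also had the lowest GC content of the coding sequence in the family, at 50.8% (Grin2a), 51.1% (Grin3a) and 52.9% (Grin2b), against 55.8% to 67.3% in the others. The part of length and base composition in the peak counts was not tested. RNA levels are not in the lists, so a gene without a peak and a gene with little RNA in whole brain cannot be told apart, nor can fewer expressing cells and less RNA per cell.

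**Figure D1:**
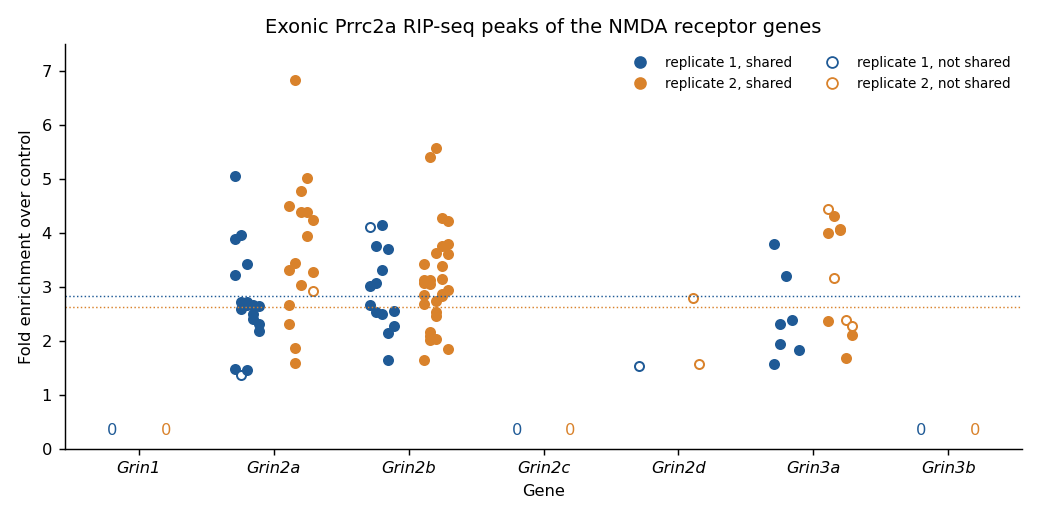
Fold enrichment (immunoprecipitate over control, linear axis) of every exonic peak of the 7 NMDA receptor genes, with replicate 1 in blue and replicate 2 in orange; filled points are shared peaks, open points are not, 0 marks no peak, and dotted lines give the median of all peaks in each list (2.84 and 2.63). Grin2a, Grin2b and Grin3a carry the shared peaks, Grin2d has 1 and 2 unshared peaks, and Grin1, Grin2c and Grin3b have none.

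Grin1 (chr2:25291181-25319187, minus strand), the subunit present in every NMDA receptor, had no exonic or intronic peak in either replicate. The peak nearest to one of its exons lay 33546 bp away, in replicate 2. The coding sequence of Grin1 is divided over 20 exons and holds GGAC 13 times in 2817 bases, or 4.61 per kb. This is the lowest GGAC density of a coding sequence in the family, with Grin2d at 4.78 and the other genes between 5.91 and 7.17. Over all exonic bases Grin1 had 4.33 per kb. Exonic bases inside peaks of both replicates had 3.53 in Grin2b, 4.77 in Grin3a and 4.86 in Grin2a. Whether GGAC density has a part in the lack of peaks was not tested.

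Grin2a, which encodes GluN2A, had 18 exonic peaks in replicate 1 and 17 in replicate 2, of which 17 and 16 were shared. Fold enrichment ranged from 1.37 to 5.05 with a median of 2.65 in replicate 1, and from 1.59 to 6.84 with a median of 3.44 in replicate 2. The 2 ranges overlapped over most of their width. Among protein-coding genes, 13 had at least as many shared exonic peaks as Grin2a, itself included, whereas the median of the 2629 genes with any was 2.

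Peaks covered 97.4% of the Grin2a coding sequence in replicate 1 and 100.0% in replicate 2. A peak lay over 11 of 12 coding exons in replicate 1 and over all 12 in replicate 2, with fold values of 2.31 to 5.05 and 2.66 to 6.84. The exception was coding exon 3 (115 bases), with no peak in replicate 1 and a peak at 2.93 in replicate 2. The leading peak, over exons 5 and 6, had a mean of 5.95 ± 1.27 (SD, n = 2) and was higher than 89.8% of all peaks in replicate 1 and 98.0% in replicate 2. Exons 7 and 8 followed, with 2.72 and 4.77 for exon 7 and 3.43 and 3.95 for exon 8 (replicates 1 and 2). The last coding exon, 1800 bases that encode most of the cytoplasmic tail, had 2.59 and 4.38. In the 11 exons with a peak in both replicates the value was higher in replicate 2 throughout. Across these exons the order in the 2 replicates was similar in part (Spearman correlation 0.59 across 11 exons, of which exons 5 and 6 share a peak).

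Outside the coding sequence, Grin2a had peaks at its 5′ end and along its 3′ UTR. The peak over the first exons of the gene (chr16:9994706-9995783) had 3.89 in replicate 1 and 4.49 in replicate 2, and the next one (chr16:9993917-9994512) had 3.97 and 1.86. The start codon lay in a peak of 2.72 and 3.04 and the stop codon in the peak of the last coding exon. In the 3′ UTR, replicate 1 had 6 peaks whose values, from the stop codon onward, were 2.67, 2.49, 2.18, 1.47, 1.37 and 1.46. Replicate 2 had 4 peaks there, at 5.02, 4.24, 2.31 and 1.59. In both replicates enrichment was highest near the stop codon and lowest toward the end of the transcript, where the midpoint of the last peak lay 9639 bases past the stop codon in replicate 1 and 9649 in replicate 2.

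Grin2b, which encodes GluN2B, had 14 exonic peaks in replicate 1 and 29 in replicate 2, of which 13 and 29 were shared. The counts differed mainly in that the 3′ end was called as 1 interval in replicate 1 and as 17 in replicate 2. Fold enrichment ranged from 1.64 to 4.14 with a median of 2.84 in replicate 1, and from 1.64 to 5.57 with a median of 3.06 in replicate 2. By shared peaks counted in replicate 1, 37 protein-coding genes had at least as many as Grin2b, itself included.

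All 12 coding exons of Grin2b lay under a peak in both replicates, and 100.0% of the coding bases were covered in each. The most enriched exons on the mean of the replicates were exon 2, at 4.64 ± 1.32 (SD, n = 2), and exon 6, at 4.36 ± 1.48 (SD, n = 2). Exon 11 led in replicate 1 with 4.14 but had 3.06 in replicate 2. Exon 5 had 3.75 and 3.12. The lowest values in replicate 1 were those of exon 12 (1.64, against 3.63 in replicate 2), which encodes the cytoplasmic tail, and of exon 7 (2.15, against 2.54). The value was higher in replicate 2 in 9 of the 12 exons, and the order of the exons was little alike between replicates (Spearman correlation 0.25 across 12 exons).

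The 3′ end of Grin2b was the widest interval in the whole replicate 1 list. It ran over 20748 bp (chr6:135713317-135734064), took in the last coding exon and 18781 bases of 3′ UTR, and had a fold of 1.64, above 7.73% of all peaks in that replicate. In replicate 2 the 17 intervals within it ranged from 1.64 to 3.80. The 16 of these that lay wholly past the stop codon began at 3.76 and 3.80 for the nearest ones, and the lowest, 1.64, had its midpoint 11126 bases past the stop codon (Spearman correlation of fold with distance −0.63 across 16 peaks, a description of neighbouring intervals of 1 transcript). The single value of replicate 1, which is also the one given for exon 12 above, thus stands for the stretch that was divided into 17 intervals in replicate 2.

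**Figure D2:**
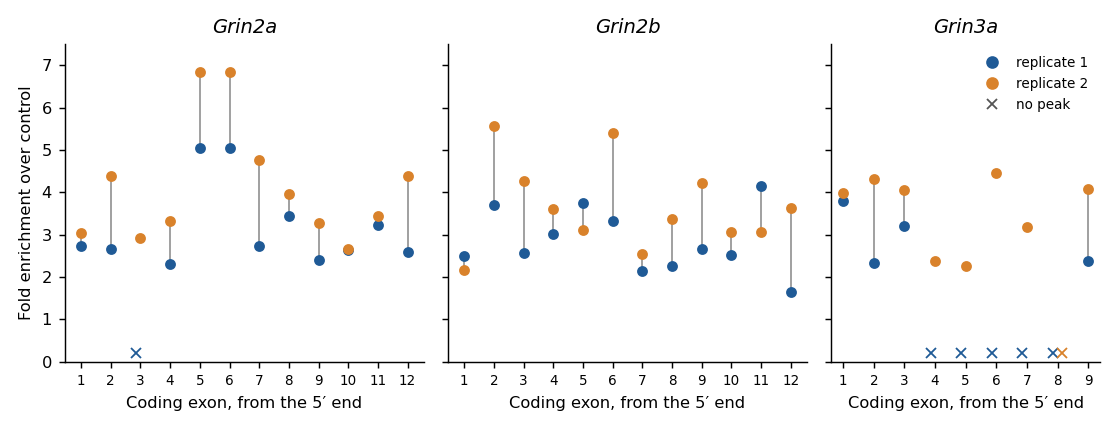
Fold enrichment (linear axis) of the peak over each coding exon, counted from the 5′ end, of Grin2a, Grin2b and Grin3a; blue points are replicate 1, orange points replicate 2, grey lines join the replicates and crosses mark exons without a peak. Grin2a exons 5 and 6 share 1 peak (5.05 and 6.84), Grin2b has a peak over all 12 exons in both replicates, and Grin3a exons 4 to 7 have a peak in replicate 2 only.

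Grin2a and Grin2b both have 12 coding exons, of which 7 pairs have equal lengths, so the exons of the paralogs could be set side by side. Exon 6 was among the most enriched in both genes (5.05 and 6.84 in Grin2a, 3.32 and 5.40 in Grin2b). Exon 3 had 2.93 in replicate 2 only in Grin2a, but 2.56 and 4.27 in Grin2b. Exon 7 had 2.72 and 4.77 in Grin2a but was near the bottom in Grin2b. Over the equal-length pairs the order of the values was not shared (Spearman correlation 0.20 across 6 pairs in replicate 1 and 0.04 across 7 pairs in replicate 2).

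Grin2c and Grin2d, the GluN2 genes with the shorter spans, lacked shared peaks. Grin2c (chr11:115249169-115267243) had no peak in either replicate, the nearest to an exon being 4889 bp away in replicate 2. Grin2d (chr7:45831883-45878378) had 1 exonic peak in replicate 1, at 1.53, over 73 exonic bases of coding exons 10 and 11. It had 2 in replicate 2, at 2.79 over coding exon 2 and 1.58 over coding exon 12. No interval was common to the replicates, and the replicate 1 peak lay 915 bp from the nearest in replicate 2. All 230 bases of the replicate 1 peak were also exonic in Gm45441, an antisense gene on the opposite strand, and the lists hold no strand, so the 2 sources cannot be told apart. Coverage of the Grin2d coding sequence was 1.84% and 16.9%, against at least 97.4% for Grin2a and Grin2b.

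Grin3a, which encodes GluN3A, a subunit best known from early postnatal development, had 7 exonic peaks in replicate 1 and 11 in replicate 2, with 7 shared in each. Fold enrichment ranged from 1.57 to 3.79 with a median of 2.32 in replicate 1, and from 1.68 to 4.45 with a median of 3.17 in replicate 2. Peaks lay over 4 of its 9 coding exons in replicate 1 and over 8 in replicate 2. The exons covered in both were 1 (3.79 and 3.99), 2 (2.32 and 4.32), 3 (3.20 and 4.05) and 9 (2.38 and 4.07). Exons 4, 5, 6 and 7 had peaks at 2.38, 2.27, 4.45 and 3.17 in replicate 2 and none in replicate 1, and exon 8, of 77 bases, had none in either. The highest value of Grin3a in replicate 2, at exon 6, therefore had no counterpart in replicate 1. The first coding exon varied least between replicates, at 3.89 on the mean.

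The 5′ UTR of Grin3a was covered entirely in both replicates (100.0%), and its start codon lay under the peak of exon 1. The 3′ UTR past the stop codon peak held weaker peaks, at 1.83, 1.57 and 1.95 in replicate 1 and at 1.68, 2.10 and 2.36 in replicate 2, and 57.4% and 45.4% of its bases were covered. Unlike in Grin2a, the values did not fall with distance from the stop codon. Among shared peaks the one with the fewest bases in common, 190, was the last of these (chr4:49662371-49662621), whereas the unshared peak nearest to a peak of the other replicate was in Grin2a, 197 bp away (chr16:9569705-9570130, 1.37 in replicate 1). Grin3b (chr10:79970715-79977190, plus strand), the other glycine-binding GluN3 gene, had no peak in either replicate and the nearest lay 16034 bp from an exon.

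**Figure D3:**
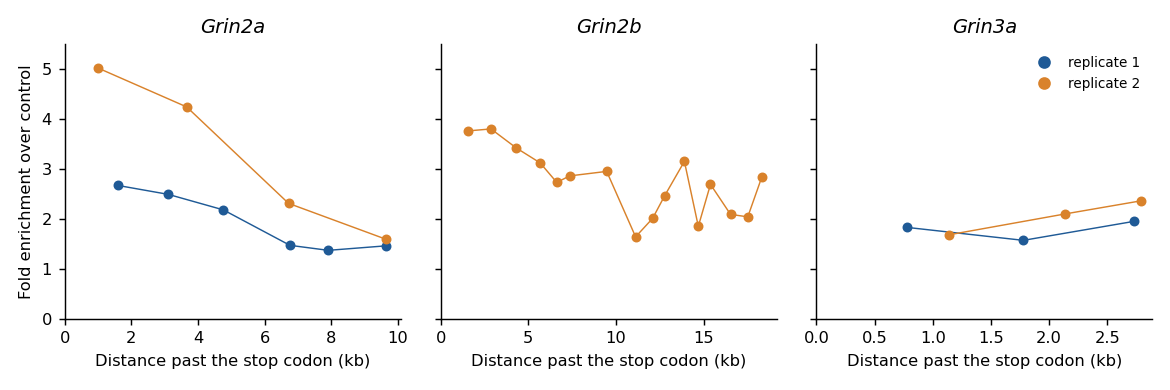
Fold enrichment (linear axis) of peaks lying past the stop codon of Grin2a, Grin2b and Grin3a against the distance of their midpoint from the stop codon in kb; blue is replicate 1 and orange replicate 2, and the replicate 1 interval of Grin2b is not drawn because it also covers the last coding exon. Values fall from 2.67 to 1.46 and from 5.02 to 1.59 along Grin2a, are highest near the stop codon in Grin2b and stay between 1.57 and 2.36 in Grin3a.

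The coding sequence of Grin2a and Grin2b was covered to at least 97.4%. The 3′ UTR was covered to 74.0% and 69.9% in Grin2a and to 96.1% and 73.4% in Grin2b (replicates 1 and 2). The 5′ UTR was covered to 89.1% and 70.5% in Grin2a and to 100.0% and 62.1% in Grin2b. Of all exonic bases, 77.6% of Grin2b, 68.9% of Grin2a and 37.6% of Grin3a lay inside peaks of both replicates. The peaks ran past the exons: around internal coding exons they extended into the flanking introns by a median of 139.5 bases per side in replicate 1 and 163.0 in replicate 2 for Grin2a, and by 146.0 and 145.5 for Grin2b, with every such exon covered to its full length.

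**Figure D4:**
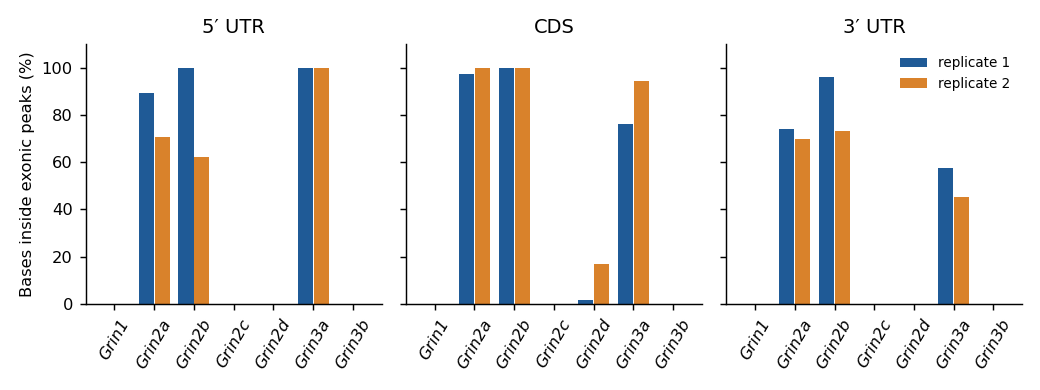
Percent of annotated 5′ UTR, CDS and 3′ UTR bases that lie inside exonic peaks for each NMDA receptor gene, with replicate 1 in blue and replicate 2 in orange. UTR bases are those of all transcripts and CDS bases those of the reference transcript. Genes without a bar are at 0. The coding sequences of Grin2a and Grin2b are covered to at least 97.4%, that of Grin3a to 76.3% and 94.4%, and that of Grin2d to 1.84% and 16.9%.

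Of the 37 shared NMDA receptor peaks, 23 had their midpoint in CDS (62.2%), 10 in 3′ UTR (27.0%) and 2 in 5′ UTR. Over the 7317 shared exonic peaks of all protein-coding genes, these shares were 50.7%, 30.4% and 11.5%. Counted on the 52 shared intervals of replicate 2, CDS and 3′ UTR each held 24 (46.2%), since the 3′ end of Grin2b then contributes 17 intervals in place of 1. The CDS share of the family therefore depended on which replicate was counted, and was 21.6% when a peak was assigned to the region with the most of its bases, because most peaks over short exons hold more intron than exon.

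GGAC was searched in the sense of the transcript over the exonic bases of replicate 1 peaks, and was present in 33 of the 37 shared peaks (89.2%), against 77.9% of all 7317. The exonic part of the family's peaks was longer, with a median of 429.0 bases against 376.0. GGACT was present in 19 (51.4%), against 43.0%. GGAC occurrences that are part of GGACT are counted in both. Within Grin2a, GGAC occurred 4.86 times per kb in exonic bases inside peaks of both replicates and 2.75 times per kb in bases outside peaks of either. For Grin3a the values were 4.77 and 2.02, and for Grin2b 3.53 and 1.30, the last over only 772 bases. GC content moved with it, at 52.3% inside and 36.6% outside in Grin3a, 48.5% and 46.8% in Grin2a and 46.9% and 45.5% in Grin2b, and its part was not tested. The bases inside peaks of both replicates also held 97.4% of the coding sequence of Grin2a, 100.0% of Grin2b and 76.3% of Grin3a. These coding sequences had 6.14, 6.29 and 7.17 GGAC per kb, so the contrast did not separate peaks from coding sequence. Of the genes without any peak, Grin2c had 6.15 and Grin3b 6.67 per kb over their exonic bases, both above the peak regions of Grin2a, Grin2b and Grin3a. The exonic bases of these 2 genes are mostly coding, with coding sequences of 3720 bases beside 5037 exonic bases in Grin2c and 3012 beside 3296 in Grin3b. Grin1 had 4.33, below those of Grin2a and Grin3a and above that of Grin2b. Of the coding exons with a peak in both replicates, 3 of 11 in Grin2a, 2 of 12 in Grin2b and 0 of 4 in Grin3a held no GGAC. Grin2a exon 5 was one of these, but the peak over it also covers exon 6, which holds GGAC 1 time.

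The 37 shared peaks are replicate 1 peaks, each paired with the replicate 2 peak that had the most bases in common. A replicate 2 peak could thus count for several, and only the widest of the 17 at the Grin2b 3′ end entered. So counted, the median fold was 2.64 in replicate 1 and 3.61 in replicate 2, against 2.27 and 2.81 for all 7317. By gene the replicate 2 median was 3.95 (Grin2a), 3.38 (Grin2b) and 3.99 (Grin3a). Over all replicate 2 exonic peaks, shared or not, it was 3.44, 3.06 and 3.17. The mean over the 37 was 3.17 ± 0.569 (SD of the 2 replicate means, n = 2), against 2.93 ± 0.328 for all. Within each replicate the mean of the family was the higher one, at 2.76 against 2.70 in replicate 1 and at 3.57 against 3.16 in replicate 2. Within the family, 31 of 37 shared peaks (83.8%) were higher in replicate 2, where 71.3% of all were. By gene these were 16 of 17 in Grin2a, 9 of 13 in Grin2b and 6 of 7 in Grin3a. The median log2 ratio of replicate 2 over replicate 1 was 0.34, against 0.26 for all shared peaks. Sequencing depth is unknown, so the precision of each fold value is known only from the pair of replicates.

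Introns of Grin2a and Grin2b held a second set of peaks that was nearly limited to replicate 1. Grin2a had 108 peaks lying in introns alone in replicate 1 and 2 in replicate 2, and Grin2b had 112 and 1. Only 1 of the Grin2a peaks was shared and none (0) of Grin2b. Their fold was higher than that of the exonic peaks of the same replicate, with a median of 4.34 (2.57 to 8.21) in Grin2a and 4.93 (2.53 to 11.3) in Grin2b. In Grin2a 106 of the 108 lay in a single 194.0-kb gap between exons (chr16:9797334-9991654), and in Grin2b 62 lay in one of 127.0 kb. Of these intronic values, 62 in Grin2a (57.4%) and 85 in Grin2b (75.9%) were held by at least 10 peaks of the same list. None (0) of the exonic peaks had a value repeated to that extent. This 0 depends on the cut of 10, since the replicate 2 peak of Grin3a exon 5 had a value held by 9 peaks. Grin3a, although 184.0 kb long, had no intronic peak in either replicate. The intronic peaks did not enter any count above. Over the whole lists, 8372 of 18129 peaks were shared in replicate 1 and 8930 of 18671 in replicate 2. Intronic peaks and repeated fold values of other genes are not given here. Whether these features were particular to Grin2a and Grin2b was not tested.

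**Figure D5:**
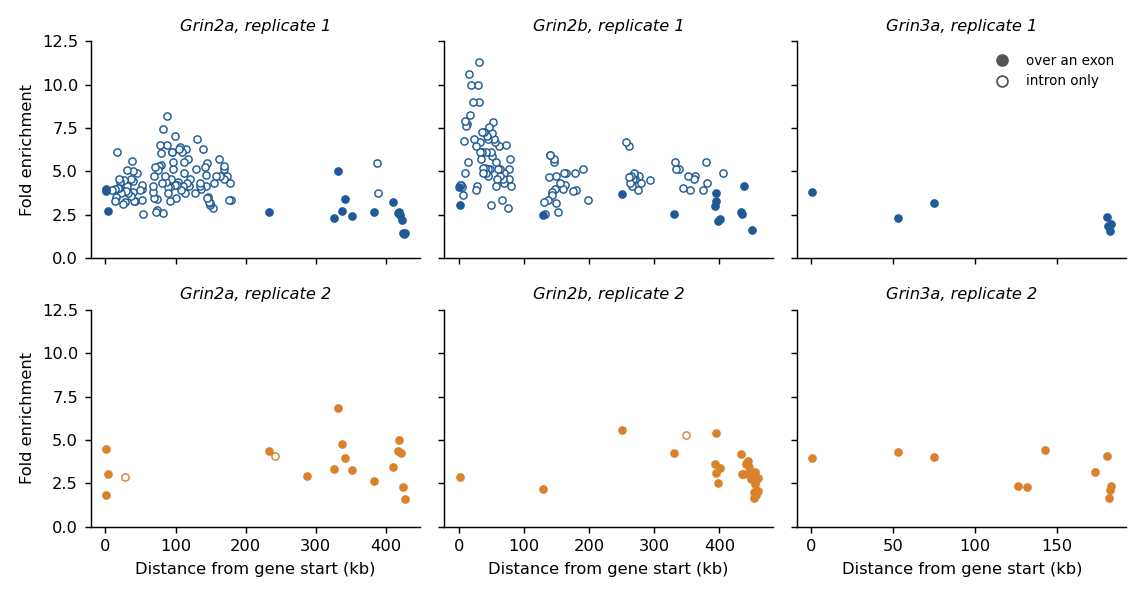
Fold enrichment (linear axis) of peaks against their distance from the gene start in kb, for Grin2a, Grin2b and Grin3a (columns) in replicate 1 (blue, upper row) and replicate 2 (orange, lower row); filled points overlap an exon and open points lie in introns only. Replicate 1 has 108 intronic peaks in Grin2a and 112 in Grin2b where replicate 2 has 2 and 1, while 17 of 18 exonic peaks of Grin2a, 13 of 14 of Grin2b and 7 of 7 of Grin3a in replicate 1 are shared.

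Exons of other annotated genes lay under a few peaks of Grin2b, all on the opposite strand. The last coding exon peak took in 143 bases of the lincRNA gene Gm14329 in both replicates, the peak of coding exon 9 took in 105 bases of the annotated miRNA gene Gm22892, and the replicate 1 peak at the 5′ end (chr6:136172711-136173588, 4.11), which was not shared, took in 49 bases of the antisense gene Gm26653. Since the lists hold no strand, reads of the partner genes cannot be told apart from those of Grin2b there. No peak of Grin2a or Grin3a had such an overlap.

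Genes that work with the receptor were listed by role and counted by the same rule. Of the 11 other ionotropic glutamate receptor genes 3 had a shared exonic peak (27.3%), where 3 of 7 NMDA receptor genes did (42.9%) and 12.0% of all protein-coding genes. Among the 5488 protein-coding genes with the most exonic bases the share was 29.6%, above that of this list. Median exonic bases were 6721 in this list and 9700 in the NMDA receptor genes. Those that passed were the kainate receptor genes Grik3 (3.50 in replicate 1 and 3.62 in replicate 2 at its leading shared peak), Grik1 (1.94 and 3.21) and Grik2 (1.73 and 1.74). The AMPA receptor genes Gria1, Gria2 and Gria3 had exonic peaks in replicate 2 only (3, 1 and 2), so the fast excitatory receptors that share synapses with NMDA receptors did not pass the rule. Of 8 metabotropic receptor genes 5 passed (62.5%), led by Grm3 (6.76 and 6.34), Grm8 (3.52 and 3.64) and Grm5 (2.20 and 3.47), the last of which is coupled to NMDA receptors through the Shank and Homer scaffolds. The leading peak of Grm3 overlapped an exon, but its midpoint lay outside the annotated gene.

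Among the scaffolds of the postsynaptic density that anchor the receptor, 8 of 14 genes had a shared exonic peak (57.1%), led by Dlgap2 (5.91 and 3.09), Dlg2, which encodes PSD-93 (4.44 and 3.10), and Shank2 (2.42 and 4.19). Of 16 genes for signalling enzymes downstream of the receptor or acting on it, 6 passed (37.5%), among them the neuronal nitric oxide synthase gene Nos1 (3.16 and 2.48) and the guanine nucleotide exchange factor gene Kalrn (2.57 and 2.82). The midpoint of this Kalrn peak also lay outside the annotated gene. Of 9 trafficking partners 4 passed (44.4%), led by Nlgn1 (3.92 and 4.65), Cask (2.12 and 2.76) and Ephb2 (2.06 and 2.20). The median fold over the shared peaks of each list lay between 1.71 and 2.15 in replicate 1, below the 2.64 of the NMDA receptor genes. In replicate 2 it lay between 2.30 and 3.20, below their 3.61, with values taken from the paired peaks. The replicate 2 order depends on this pairing. Over all replicate 2 exonic peaks the median was 3.44 in Grin2a but 3.06 in Grin2b and 3.17 in Grin3a. The lists were not compared on all replicate 2 peaks. By share of genes, the metabotropic receptors, scaffolds and, narrowly, trafficking partners lay above the NMDA receptor genes and the other lists below. At a fold of at least 2 in both replicates, scaffolds (5 of 14) and trafficking partners (3 of 9) lay below the NMDA receptor genes (3 of 7). Metabotropic receptors (4 of 8) stayed above. Of the 5488 protein-coding genes with the most exonic bases, 29.6% had a shared exonic peak. Median exonic bases were 5931.5 in metabotropic receptors, 10625 in scaffolds, 8967 in signalling enzymes and 4582 in trafficking partners. No list was tested against another.

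Over the whole lists, the median fold was 2.84 in replicate 1 (1.26 to 22.2) and 2.63 in replicate 2 (1.22 to 55.5), and 8372 and 8930 peaks were shared. Of the defining markers of brain cells, 0 of 6 for neurons, 1 of 4 for astrocytes (Slc1a2, 3.76 and 4.01) and 0 of 4 for oligodendrocytes had a shared exonic peak. Counted in each replicate alone, 0 and 2 neuronal, 2 and 1 astrocytic and 1 and 2 oligodendrocyte markers had an exonic peak (replicates 1 and 2), among them Map2 and Nefm in replicate 2. Of 8 markers of other organs, 0 had a peak in either replicate.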

How the data were processed

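Prrc2a RIP-seq libraries of wild type whole brain were sequenced by the authors in 2 replicates. Per the methods and the submitters' processing notes, reads were trimmed, aligned to mm10 with TopHat2 2.0.9, kept when uniquely mapped, and peaks were called with MACS2 2.0.10 without fragment modelling (the methods name other versions of both). Replicates were called separately. The deposited values are peak positions and, for each peak, the fold enrichment as a linear ratio over a control library that is not stated. Depth, strand and FDR are not in the lists. Peaks are genomic intervals, so those over short exons run into introns.

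Overlaps with GENCODE M21 exons (minimum 1 bp), regions at peak midpoints and motifs were computed in Python 3.11.15 with numpy 2.4.6, scipy 1.17.1, pysam 0.24.0 and samtools 1.23.1, and plots drawn with matplotlib 3.10.9. Positions count from 1. Coding exons are those of the APPRIS principal transcript with the most exonic bases. Coverage of the coding sequence uses that transcript alone, and coverage of exonic and UTR bases uses all transcripts. The GRCm38 sequence and the alternative exon set were from RefSeq. All 8 simulated quantities were recovered exactly when the functions were tested on simulated data. The members and gene lists were chosen with earlier results of these data known, so no test was run. Named were all 7 members, of each related list the 3 genes with the highest mean fold in a shared exonic peak, and genes sharing a member peak; Gria1, Gria2, Gria3, Map2, Nefm and Slc1a2 were named after their values were seen. A few items that this rule or the choice of sequences would have given are not reported here. Alternatives covered the overlap rule, the fold minimum, the annotation, the region rule, the motif, the replicate counted and each replicate alone.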

Additional observations from a re-analysis of the deposited data

How the results depend on the processing

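Of 51 alternatives, 35 were labelled as leaving the value and 16 as moving it, with limits wider for counts than for percentages. Those labelled as leaving it include 52 shared peaks in place of 37 with replicate 2 counted. They also include 1850 protein-coding genes in place of 2629 at a fold of at least 2 in both replicates. A GGAC share of 84.6% in place of 89.2% was labelled as moved. The 3 genes with shared exonic peaks stayed 3 in number under an overlap of 50% of both peaks, a fold of at least 2 in both replicates, replicate 2 counted, the basic annotation, RefSeq exons and whole gene spans; with a fold of at least 4 in both replicates 1 gene and 1 peak were left, the peak of Grin2a coding exons 5 and 6. With either replicate alone there were 4 genes, Grin2d being the fourth, and 40 to 59 peaks in place of the 37 shared ones. Requiring 50% of a peak to be exonic left 20 peaks. The CDS share of 62.2% became 21.6% by the region with the most bases, 46.2% with replicate 2 counted, 74.2% under the 50% overlap and 52.5% to 57.5% with either replicate alone. The GGAC share of 89.2% became 51.4% for GGACT, 83.8% in the bases common to both replicates, 84.6% with replicate 2 counted and 84.7% to 87.5% with either replicate alone. The mean fold of 3.17 ranged from 2.76 to 3.57 with the values of either replicate alone over the same 37 pairs. At a fold of at least 2, 1 other ionotropic receptor gene and 5 scaffold genes kept a shared peak, and 5 scaffold genes did under the 50% overlap. Chosen after seeing the data, merging the peaks of both replicates gave 34 shared regions, and leaving out the widest peak, that of Grin2b, gave a CDS share of 63.9%. No paired analysis was possible because there was 1 condition. Depth is unknown, so an exon without a peak may lie below what a library could resolve.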
